A study of Homo sapiens with 4 samples.

Results

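The genes described here are DHRS2 and 9 other members of the DHRS group of dehydrogenases, taken by symbol from a table of 59409 gene symbols measured by RNA sequencing in 786-O cells. The 10 symbols are DHRS2, DHRS1, DHRS4, DHRS4L2, DHRS7, DHRS7B, DHRS9, DHRS11, DHRS12 and DHRS13, and all were found. DHRS2 entered because of its difference in this very comparison, and the others were taken up with the comparison known, so the members' values are given as a description and without p-values. Polyadenylated RNA came from 786-O, an established line grown from a human clear cell kidney carcinoma, in which VHL is inactive. There were 2 libraries labelled DEK KO and 2 labelled as negative control with genotype WT. Cells of the line had been turned into a Cas9-expressing clone with the LentiCas9-Blast virus, and the knockout clones were derived from such cells with LentiGuide-Puro viruses carrying guides against DEK and single-cell sorting. Whether the negative control cells received a guide virus or were sorted is not stated, nor which clone each knockout library came from. The comparison asked how the transcriptome differs without DEK, a chromatin-associated histone chaperone. The labels do not describe the libraries of a group as separate cultures, so a p-value below reflects the scatter of these libraries alone and that scatter may be technical.

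DHRS proteins belong to the short-chain dehydrogenases/reductases, a superfamily of NAD(H)- or NADP(H)-dependent enzymes that interconvert carbonyl and alcohol groups on retinoids, steroids, lipids and foreign compounds. DHRS2, also called HEP27, reduces dicarbonyl compounds and is found in mitochondria and the nucleus. It is also known as a target of the transcription factor MYB and as a protein that binds MDM2, a ubiquitin ligase. DHRS4 is a peroxisomal reductase of carbonyl compounds and retinal, and DHRS4L2 is a copy of it in the same gene cluster.

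On chromosome 14, 5 of the 10 genes are found, and 3 lie on chromosome 17. In GENCODE release 29 on GRCh38, DHRS2 spans 23630115 to 23645639 on the plus strand of chromosome 14. DHRS4 follows on the same strand at 23953586 to 23969279, 308 kb beyond the end of DHRS2. DHRS4L2 begins 594 bases after DHRS4 and spans 23969874 to 24006408. DHRS1 lies at 24290598 to 24299833 on the minus strand, 645 kb from DHRS2. The bases before the start of DHRS2 are shown because this is the member that differed most between the groups, and those of DHRS4 because it is the nearest member and hardly differed. Both are the 250 bases upstream of the RefSeq start on GRCh38.p14, plus strand, at chr14:23629865-23630114 for DHRS2 and chr14:23953520-23953769 for DHRS4. The DHRS2 window ends just before the GENCODE start of the gene. For DHRS4 the RefSeq start lies past the GENCODE start at 23953586, so most of that window is inside the GENCODE gene. Capitals mark CG pairs and the letters TATAAA.
DHRS2: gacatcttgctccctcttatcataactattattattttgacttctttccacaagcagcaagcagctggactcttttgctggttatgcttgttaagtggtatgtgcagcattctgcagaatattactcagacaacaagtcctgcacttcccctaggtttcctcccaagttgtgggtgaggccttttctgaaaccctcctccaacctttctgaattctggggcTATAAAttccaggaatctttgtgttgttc
DHRS4: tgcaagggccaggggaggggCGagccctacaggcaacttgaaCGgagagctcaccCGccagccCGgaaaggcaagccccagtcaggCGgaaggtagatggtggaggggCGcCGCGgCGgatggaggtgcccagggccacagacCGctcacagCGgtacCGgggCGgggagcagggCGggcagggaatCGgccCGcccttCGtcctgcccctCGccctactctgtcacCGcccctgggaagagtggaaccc

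The DHRS2 stretch holds 0 CG pairs and 1 TATAAA, which begins 29 bases before the start, whereas the DHRS4 stretch holds 19 CG pairs and no TATAAA. Among 35116 RefSeq promoter windows of the same length, 6.06% hold no CG pair, 10.7% hold TATAAA on either strand, and the median number of CG pairs is 11. RefSeq windows were matched for 9 of the 10 members, 18 windows in all, and DHRS7 had none in the table. The 4 windows of DHRS9 also hold few CG pairs, 0 to 2. TATAAA is in 3 of them, but 114 and 137 bases before the start in 2 windows and on the other strand in the third. The 13 windows of the other 7 matched members hold 6 to 34 CG pairs, and TATAAA is found in 0 of them. A form of the sequence that MYB recognises, TAACNG, was searched on both strands as well and is present in 17.6% of all windows, in 3 windows of DHRS1 and DHRS12, and in 0 windows of DHRS2, which says only that these letters are not in that window.

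The targeted gene was checked first. DEK, on the minus strand of chromosome 6 (18223868 to 18264823), had 31.4 and 15.7 TPM (transcripts per 1000000) in the knockouts, against 95.02 and 76.3 TPM in the controls. Its log2 difference was -1.89 (SE 0.33, limma adjusted p = 0.030), with both knockouts below both controls. Its mRNA thus remained detectable. Without control 1 or control 2 the adjusted p was 0.22 or 0.19. Wherever a library is left out, 1 group has a lone library, which is assumed to vary like the pair of the other group. Log2 differences throughout are knockout minus control of log2(TPM + 1). The added 1 makes changes of weakly expressed genes look smaller.

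Estimated from the steps of low TPM values, depth was 35.8 to 40.05 reads per library in units of 1000000. Pearson's r across 15815 tested genes, which are not independent replicates, was 0.980 between the knockouts, 0.989 between the controls and 0.941 to 0.964 between groups. Of the 15815 genes, 1433 were higher and 1371 lower in knockout libraries (limma, adjusted p under 0.05), and 1588 and 955 when libraries were scaled by median ratios. Of the 8 markers of renal epithelial origin, all were expressed in all 4 libraries, from 8.94 TPM for PAX2 in knockout 2 upwards, with PAX8, the renal lineage factor, at 140.1 to 160.4 TPM. PAX2 and CDH6 were lower and KRT18 higher in the knockout. Of 8 markers of blood, endothelium, fibroblasts and liver, CD3E and PDGFRA were at 0 in all libraries and only COL1A1 exceeded 1 TPM, at 1.48 to 2.33 TPM.

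DHRS2 was nearly silent in control cells and one of the most strongly expressed DHRS genes in knockout cells. It had 43.0 and 41.6 TPM in the knockouts, against 0.582 and 0.449 TPM in the controls. The knockouts agreed closely with each other and stood far above both controls, with no overlap. In read numbers, which are approximate, that is 3012 and 3275 reads in the knockouts and 44 and 36 in the controls, so the control level rests on few reads. The mean was 42.3 ± 0.969 TPM in the knockouts and 0.516 ± 0.0941 TPM in the controls (SD, n = 2 each), an 82.0-fold ratio. The ratio was 72.6 without control 2 and 94.2 without control 1, and 80.7 or 83.3 with either knockout left out. On the log2(TPM + 1) scale the difference was 4.84 (SE 0.13), the third largest of the 15815 tested genes in either direction. With a pseudocount of 0.1 in place of 1 it was 6.11. This value chose the gene, so no test is attached to it. In bulk RNA, a higher level in every cell and a larger share of expressing cells cannot be told apart. Of the 50-base stretches of DHRS2 transcripts, 0.114% also occur in transcripts of another gene, so few reads are ambiguous between DHRS2 and other annotated genes.

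**Figure D1:**
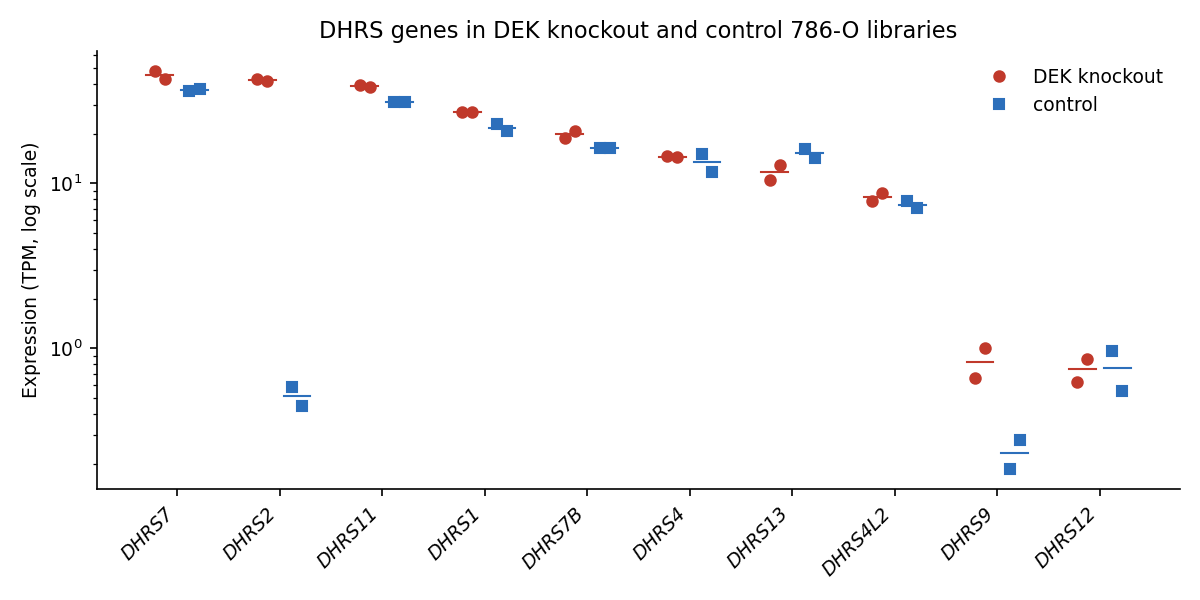
Expression of the 10 DHRS genes in TPM on a log axis, with DEK knockout libraries (circles) to the left of controls (squares) and a line at each group mean (n = 2 per group). DHRS2 is at 43.0 and 41.6 TPM in the knockouts and at 0.582 and 0.449 TPM in the controls, while the groups of the other genes lie close together, apart from DHRS9 at a low level.

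The other enzymes of the cluster on chromosome 14 differed little. DHRS4 had 14.7 and 14.4 TPM in the knockouts, against 15.0 and 11.8 TPM in the controls, so that both knockouts lay between the controls. Its log2 difference was 0.12 (SE 0.15), less than its SE, and it was -0.05 without control 2. DHRS4L2 had 7.85 and 8.70 TPM in the knockouts, against 7.81 and 7.07 TPM in the controls. Its groups did not overlap, but the knockout minimum exceeded the control maximum by less than the SD within either group, 0.605 TPM in the knockouts and 0.528 TPM in the controls. DHRS4L2 shares 22.5% of its 50-base stretches with AL136419.1, an overlapping transcript on the same strand. Of the 50-base stretches in DHRS4 transcripts 35.4% also occur in DHRS4L2 transcripts, and of those in DHRS4L2 32.1% occur in DHRS4. With all other genes together, DHRS4 shares 48.0% and DHRS4L2 50.3%. The division of reads between these copies is therefore uncertain. DHRS4-AS1, an antisense RNA that overlaps both genes, had 4.39 and 4.86 TPM in the knockouts, against 4.60 and 4.24 TPM in the controls, with overlapping groups (log2 difference 0.05, SE 0.15, limma adjusted p = 0.82). DHRS4 shares 10.9% of its 50-base stretches with DHRS4-AS1. Whether counting used strand is not stated, so reads of these 2 genes may not be separated.

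DHRS1, DHRS7, DHRS7B and DHRS11 were each slightly above their controls in both knockouts. DHRS1, an enzyme of the endoplasmic reticulum, had 26.9 and 27.1 TPM in the knockouts, against 22.8 and 20.8 TPM in the controls (log2 difference 0.30, SE 0.09). DHRS7, a membrane-bound reductase of the endoplasmic reticulum that acts on steroids and retinoids, had 48.2 and 43.2 TPM in the knockouts, against 36.5 and 37.5 TPM in the controls (log2 difference 0.30, SE 0.09). These genes were at the upper end of the group in both conditions. DHRS7B, which makes ether lipid precursors in peroxisomes, had 18.8 and 20.8 TPM in the knockouts, against 16.5 and 16.4 TPM in the controls (log2 difference 0.25, SE 0.10). DHRS11, a cytosolic reductase of steroids, had 39.4 and 38.6 TPM in the knockouts, against 31.3 TPM in both controls (log2 difference 0.31, SE 0.08). The ratios of mean TPM for these 4 genes were 1.20 to 1.25, and in none of the 4 did the groups overlap. Such separation was common, with both knockouts above both controls in 29.2% of all tested genes and below both in 39.0%. DHRS7 shares 24.3% of its 50-base stretches with PCNX4, an overlapping gene on the opposite strand, and whether counting used strand is not stated.

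DHRS13 was the tested member below its controls. It had 10.4 and 13.0 TPM in the knockouts, against 16.1 and 14.3 TPM in the controls, without overlap (log2 difference -0.35, SE 0.15, ratio of means 1.30-fold lower). The antisense gene AC024267.6 shares 37.7% of its 50-base stretches, which limits the value of DHRS13 in the same way. DHRS9 and DHRS12 did not reach 1 TPM in 2 libraries and were not tested. DHRS9, a retinol and steroid dehydrogenase, had 0.661 and 0.998 TPM in the knockouts, against 0.185 and 0.280 TPM in the controls, which corresponds to 23 and 39 reads in the knockouts and 7 and 11 in the controls. Both knockouts lay above both controls, and the ratio of summed reads per depth was 3.60 (exact 95% interval 2.10 to 6.47, for counting error only). DHRS12 had 0.622 and 0.866 TPM in the knockouts, against 0.963 and 0.551 TPM in the controls. Its knockouts lay inside the range of the controls, with a read ratio of 1.01 (0.675 to 1.50). DHRS12 shares 16.3% of its 50-base stretches with AL162377.3, an overlapping gene on the same strand, so its level is uncertain.

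Of the 10 members 8 reached the filter on low values and entered the fit. DHRS2 did so only through the knockouts, where it is high, and was chosen by this difference, so its place past the threshold was fixed beforehand. Of the other 7, 0 were past an adjusted p under 0.05 as higher or lower (limma, 3 at an unadjusted p under 0.05, all higher), beside 9.06% as higher and 8.67% as lower over all tested genes. Both knockouts lay above both controls in 6 of the 8 and below both in 1, where 29.2% and 39.0% of all tested genes did so. Because the members were chosen with this comparison known, nothing is read from these shares. Without DHRS2, the log2 differences of the other 7 ran from -0.35 to 0.31 with a median of 0.25, beside a median of -0.06 over all tested genes. The median of all tested genes on a chromosome was -0.03 for chromosome 14 and 0.03 for chromosome 17, within a range of -0.18 to 0.22 over chromosomes. With the chromosome's median subtracted, the difference of DHRS2 was 4.87.

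**Figure D2:**
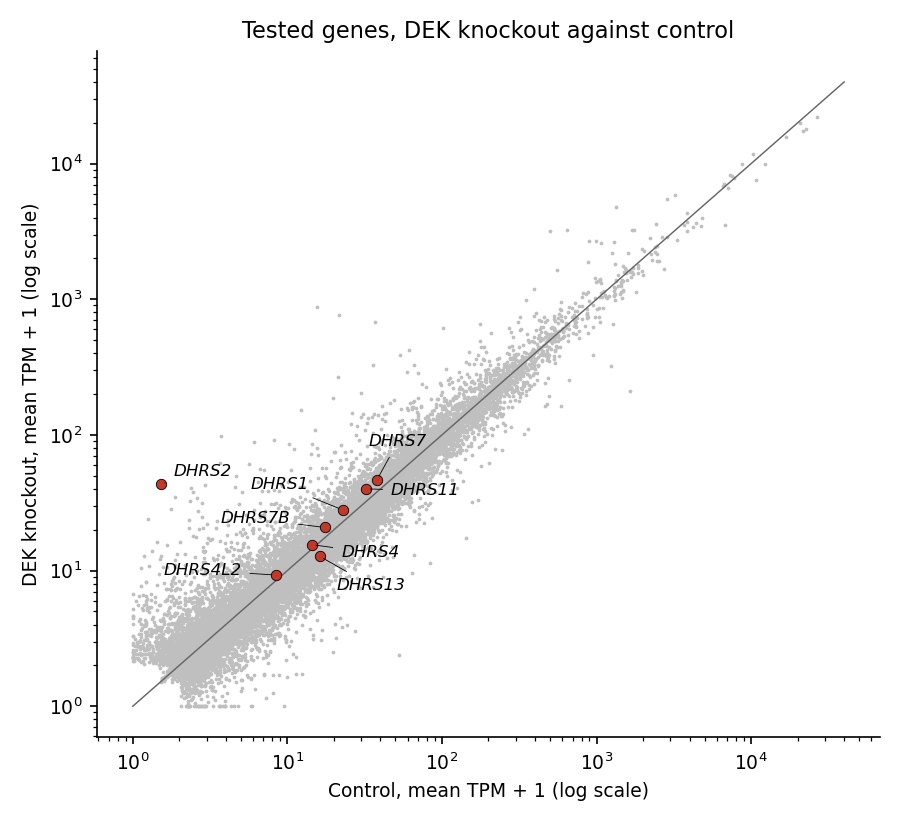
Mean TPM + 1 in DEK knockouts against mean TPM + 1 in controls on log axes, 1 grey point for each of the 15815 tested genes, the 8 tested DHRS genes in red and the line of equal level. DHRS2 stands far above the line and the other 7 lie close to it, with log2 differences of -0.35 to 0.31.

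With DHRS2 at this level, the order and the sum of DHRS transcripts differed between the groups. TPM divides reads by a gene length, and the lengths used were not stated, so order and shares between genes depend on them. In the knockouts DHRS2 had an estimated 3012 and 3275 reads, against 1452 and 1461 for DHRS7, which ranked above it in TPM. In the knockouts the order of mean TPM was DHRS7 (45.7 ± 3.56), DHRS2 (42.3 ± 0.969), DHRS11 (39.0 ± 0.543), DHRS1 (27.0 ± 0.105), DHRS7B (19.8 ± 1.45), DHRS4 (14.5 ± 0.225), DHRS13 (11.7 ± 1.81), DHRS4L2 (8.27 ± 0.605), DHRS9 (0.830 ± 0.238) and DHRS12 (0.744 ± 0.172) (SD, n = 2). DHRS7 and DHRS2 differed by less than the SD of DHRS7, and DHRS9 and DHRS12 by less than either SD. In the controls the order was DHRS7 (37.0 ± 0.733), DHRS11 (31.3 ± 0.0119), DHRS1 (21.8 ± 1.38), DHRS7B (16.4 ± 0.0649), DHRS13 (15.2 ± 1.26), DHRS4 (13.4 ± 2.29), DHRS4L2 (7.44 ± 0.528), DHRS12 (0.757 ± 0.292), DHRS2 (0.516 ± 0.0941) and DHRS9 (0.232 ± 0.0672). There, DHRS7B and DHRS13, DHRS13 and DHRS4, and DHRS12 and DHRS2 were neighbours that differed by less than the larger of their SDs. DHRS2 was thus number 2 of 10 in the knockouts and number 9 in the controls. The 10 genes summed to 210.5 and 209.2 TPM in the knockouts, against 147.6 and 140.4 TPM in the controls. DHRS2 supplied 20.4% and 19.9% of that sum in the knockouts, against 0.394% and 0.320% in the controls. Without it the sums were 167.6 TPM in both knockouts and 147.1 and 139.98 TPM in the controls, so most of the difference in the sum was DHRS2 itself.

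**Figure D3:**
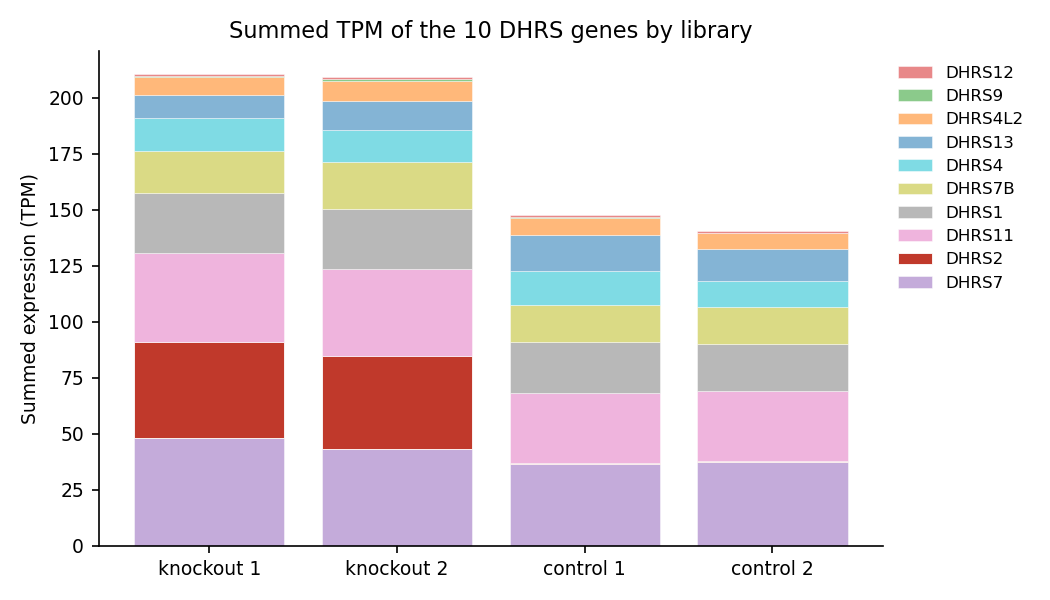
Summed TPM of the 10 DHRS genes in each library, stacked by gene, with the 2 DEK knockouts left of the 2 controls. The bars reach 210.5 and 209.2 TPM in the knockouts and 147.6 and 140.4 TPM in the controls, and the red DHRS2 segment is visible in the knockouts only.

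The genes around DHRS2 were examined for a difference extending along the chromosome. Within 1 Mb on either side, 121 genes of the table were found besides DHRS2, DHRS4, DHRS4L2 and DHRS1, of which 50 were tested. Of these, 8 were higher and 5 lower in the knockout (26.0%, against 17.7% of all tested genes), with a median log2 difference of 0.09. Among the lower calls is RNA5SP383, an rRNA pseudogene, at 0.898 and 0.800 TPM in the knockouts, against 2.47 and 3.97 TPM in the controls. It reached the filter only through the controls, so a difference was a condition of its being tested, as for SLC22A17 below. The nearest tested protein-coding gene upstream, AP1G2, ends 62.0 kb from DHRS2 and had 12.2 and 11.4 TPM in the knockouts, against 12.9 and 11.7 TPM in the controls (log2 difference -0.05, SE 0.12, limma adjusted p = 0.76). AL135999.1, an antisense RNA whose gene lies within and slightly past the start of AP1G2 on the other strand, had 8.04 and 5.77 TPM in the knockouts, against 3.72 and 3.47 TPM in the controls (log2 difference 0.77, limma adjusted p = 0.057). Both were singled out for their place, after their values had been seen. Downstream, the tested genes nearest to DHRS2 were DHRS4-AS1, DHRS4 and DHRS4L2, described above. The next tested gene beyond them is PCK2, which encodes the mitochondrial form of phosphoenolpyruvate carboxykinase, 448 kb away. PCK2 rose to 30.4 and 33.3 TPM in the knockouts, against 17.1 and 16.8 TPM in the controls (log2 difference 0.87, SE 0.10, limma adjusted p = 0.016).

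Farther upstream, SLC22A17, which encodes a receptor for lipocalin-2, rose to 4.42 and 4.36 TPM in the knockouts, against 0.602 and 0.890 TPM in the controls (log2 difference 1.63, SE 0.18, limma adjusted p = 0.016). It reached the filter of 1 TPM only through the knockouts, so a difference was a condition of its being tested. Like DHRS2 it was low in controls and even between the knockouts, at a 5.89-fold ratio of means. MMP14, a membrane-anchored matrix metalloproteinase, rose by 1.02, LRP10, a receptor of the LDL receptor family, by 0.90 and BCL2L2, the survival factor BCL-w, by 0.56 on the log2 scale (limma adjusted p = 0.022, 0.018 and 0.034). BCL2L2 overlaps BCL2L2-PABPN1 on the same strand, so the division of reads between them is uncertain. BCL2L2-PABPN1 had 0.773 and 0.486 TPM in the knockouts, against 1.63 and 1.25 TPM in the controls (limma adjusted p = 0.13). AJUBA, a LIM-domain scaffold protein, fell by 0.48 on the log2 scale (limma adjusted p = 0.020). The log2 differences of the tested neighbours reached at most 1.63, against 4.84 for DHRS2. Because DHRS2 was chosen for its difference, nothing is read from its exceeding its neighbours. Neighbours below the filter are not covered by these values and went both ways. ZFHX2, slightly farther upstream than AP1G2, had 0.471 and 0.399 TPM in the knockouts, against 0.0617 and 0.0595 TPM in the controls (ratio of means 7.18). CHMP4A, downstream, had 0.110 and 0.196 TPM in the knockouts, against 0.504 and 0.291 TPM in the controls. These examples were picked by their values and were not tested. CHMP4A overlaps AL136295.1 and AL096870.2 on the same strand, and ZFHX2 lies within ZFHX2-AS1 on the other strand. The levels of both are therefore uncertain. With control 1 or control 2 left out, limma called 0 of the 50 neighbours (11 and 10 at an unadjusted p under 0.05) and 0 genes in all.

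**Figure D4:**
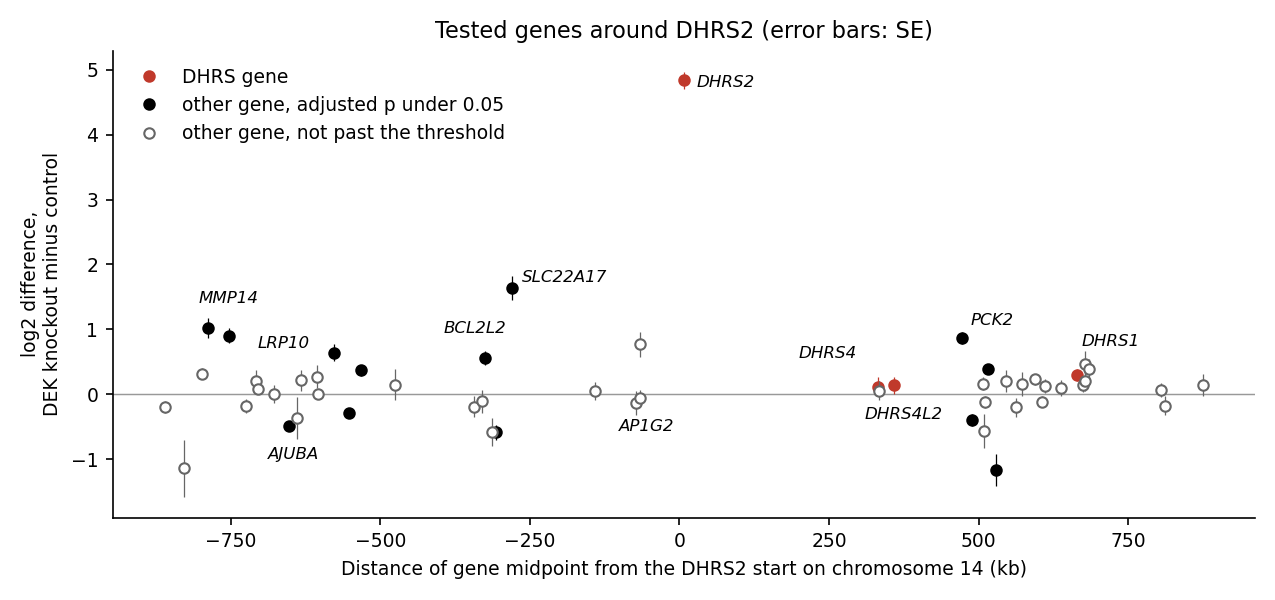
Log2 difference (DEK knockout minus control, error bars SE) of tested genes within 1 Mb of DHRS2 on chromosome 14, against the distance of the gene's midpoint from the DHRS2 start in kb. DHRS2, which was chosen for its difference, is at 4.84. DHRS4, DHRS4L2 and DHRS1 (also red) are at 0.12, 0.14 and 0.30, and the neighbours past the threshold (black) are scattered on both sides.

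The rest of the superfamily was examined through 64 further genes, among them DHRS3, DHRSX and DHRS7C, the retinol dehydrogenases, the hydroxysteroid dehydrogenases and other short-chain dehydrogenases, with the antisense RNA DHRS4-AS1 and the pseudogene DHRS4L1 included for completeness. Of these, 44 were tested and 5 were higher and 3 lower in the knockout, or 18.2%, close to the 17.7% of all tested genes. The median log2 difference was -0.09, beside -0.06 over all tested genes. The 8 calls were those of HSD11B1, CBR1, CBR3, KDSR and BLVRB, which were higher, and HSDL2, DECR1 and MAT2B, which were lower. With control 1 or control 2 left out, 0 of the 44 passed by limma (4 at an unadjusted p under 0.05 in each case), and without knockout 1 there were 15 calls. SDR39U1, DHRS4-AS1 and the untested DHRS4L1 are counted both here and among the neighbours.

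HSD11B1, which regenerates active glucocorticoid from its inactive form, rose to 1.50 and 2.54 TPM in the knockouts, against 0.393 and 0.442 TPM in the controls (log2 difference 1.07, SE 0.25, limma adjusted p = 0.049). It reached the filter of 1 TPM only through the knockouts, where it is high, so a difference was a condition of its being tested. The value rests on 21 and 40 reads in the knockouts and 6 and 7 in the controls, and without knockout 2 the adjusted p was 0.085. CBR3 and CBR1, carbonyl reductases of the cytosol, rose by 0.43 (SE 0.09, limma adjusted p = 0.042) and 0.28 (SE 0.06, limma adjusted p = 0.047) on the log2 scale. CBR1 had 123.1 and 127.3 TPM in the knockouts, against 103.1 and 102.0 TPM in the controls. KDSR, a reductase of sphingolipid synthesis, rose by 0.38 and BLVRB, biliverdin reductase B, by 0.31 (limma adjusted p = 0.048 and 0.040). HSDL2, a peroxisomal member of the superfamily, fell to 83.2 and 77.9 TPM in the knockouts, against 112.2 and 115.5 TPM in the controls (log2 difference -0.50, SE 0.07, limma adjusted p = 0.022). MAT2B, the regulatory subunit of methionine adenosyltransferase, fell by 0.55 and DECR1, a mitochondrial enzyme of unsaturated fatty acid oxidation, by 0.43 on the log2 scale (limma adjusted p = 0.036 and 0.042). None of these 8 calls held with no filter on low values or without the trend in the variance prior. With quantile normalization, HSD11B1, CBR1 and DECR1 were not called (adjusted p = 0.059, 0.053 and 0.064), nor was DECR1 with median ratio scaling (adjusted p = 0.058). Without knockout 2, KDSR and MAT2B were not called either (adjusted p = 0.062 and 0.064).

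Of the 5 retinol dehydrogenases tested out of 10, 0 passed the threshold by limma (1 at an unadjusted p under 0.05), beside 17.7% called of all tested genes. DHRS3, which reduces retinal to retinol, had 24.0 and 4.75 TPM in the knockouts, against 23.6 and 27.1 TPM in the controls. Knockout 1 lay between the controls and knockout 2 far below both, so the log2 difference of -1.13 had an SE of 0.69 (limma adjusted p = 0.29). It was -2.19 without knockout 1 (adjusted p = 0.0042) and -0.07 without knockout 2 (adjusted p = 0.69), each from a lone knockout with the spread taken from the controls. DHRS2 showed no such split between the knockouts. DHRSX, an enzyme encoded in the pseudoautosomal region, was listed at 0 in all 4 libraries, as were all 15 protein-coding genes of that region of Xp in the table, so that its 0 is no measurement of its level. DHRS7C and DHRS4L1 were also listed at 0 in every library.

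**Figure D5:**
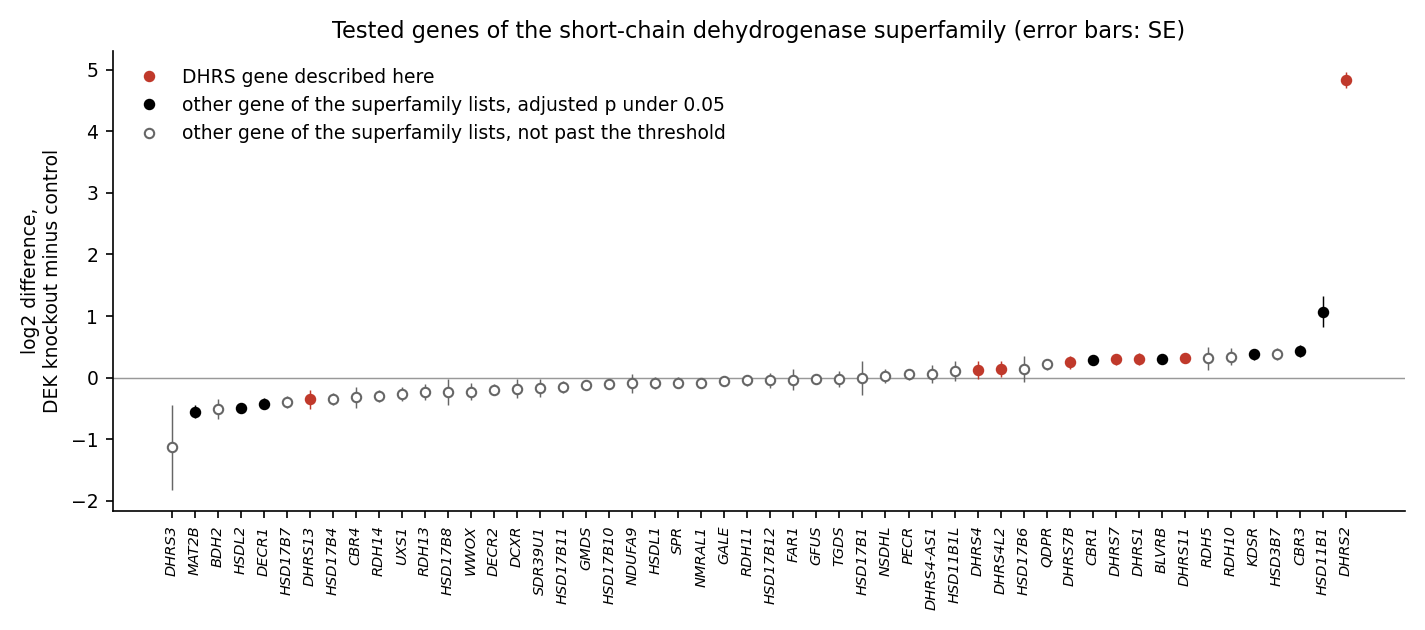
Log2 difference (DEK knockout minus control, error bars SE) of tested genes of the short-chain dehydrogenase superfamily in rising order, the 8 tested DHRS genes described here in red and the other 44 genes in black where past the threshold. Apart from DHRS2 at 4.84, the values run from -1.13 for DHRS3 to 1.07 for HSD11B1.

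The list of genes around MYB and MDM2 is reported for 4 members, of which 3 were tested, 1 rose and 0 fell (limma, 1 of the lower genes at an unadjusted p under 0.05). Over all tested genes 17.7% were called, and nothing is read from 1 call among 3 genes. MYB, the transcription factor for which DHRS2 is a known target, was at 0.625 and 0.598 TPM in the knockouts, against 0.913 and 0.839 TPM in the controls, below the filter. Both knockouts thus lay below both controls for MYB, at 32 and 34 reads in the knockouts and 51 and 48 in the controls. CDKN1A, which encodes the cell cycle inhibitor p21, rose to 732.0 and 739.2 TPM in the knockouts, against 323.7 and 314.9 TPM in the controls (log2 difference 1.20, SE 0.06, limma adjusted p = 0.0057). MDM2 had 13.2 and 8.64 TPM in the knockouts, against 14.6 and 11.4 TPM in the controls, with overlapping groups (log2 difference -0.25, SE 0.23, limma adjusted p = 0.48). MDM4, its relative, had 5.37 and 3.87 TPM in the knockouts, against 7.10 and 6.79 TPM in the controls (log2 difference -0.51, SE 0.18, limma adjusted p = 0.11). It was -0.71 without knockout 1 (adjusted p = 0.036) and -0.32 without knockout 2 (adjusted p = 0.20). Without control 1 or control 2 CDKN1A did not pass the threshold.

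The protein-coding genes most like DHRS2 were found as those with the smallest root mean square difference from it in log2(TPM + 1) over the 4 libraries. They were PGF (0.54), INHBA (0.56), CSF2 (0.64), SCG5 (0.73) and KRT79 (0.82). PGF, placental growth factor, had 35.9 and 27.7 TPM in the knockouts, against 1.44 and 1.25 TPM in the controls, and lies on chromosome 14 as well, at 74941834 to 74955784. INHBA, the activin A subunit, had 28.8 and 44.7 TPM in the knockouts, against 1.59 and 1.28 TPM in the controls. CSF2, the cytokine GM-CSF, had 18.5 and 48.8 TPM in the knockouts, against 1.00 and 0.726 TPM in the controls. All 5 shared a low control level with DHRS2 and were less even between the knockouts, where DHRS2 had an SD of 0.969 TPM and these genes had SDs of 5.86 to 26.3 TPM. They were picked by this likeness, so it is a description with no test.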

How the data were processed

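Polyadenylated RNA of 786-O cells was measured in 2 DEK knockout and 2 control libraries, grouped and numbered by their titles. The authors deposited 1 table of TPM, transcripts per 1000000, holding 59409 gene symbols. Every column adds up to 1000000, so values are relative within a library. In the submitters' processing notes hg38 is named as the build, and the tools are DESeq2 1.36.0, STAR 2.7.8a, cutadapt 1.18 and featureCounts 2.0.1, without roles. Annotation, gene lengths and strand setting were not stated there.

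Symbols were matched to GENCODE release 29 (GRCh38), 54330 directly and 2155 by current symbol. Depth was estimated from the whole-number steps of TPM times exon length. Under 200 reads, 51.7% to 55.9% of values were whole to within 0.02, against 4% by chance, so read numbers are approximate, and intervals cover counting error only.

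The 15815 genes reaching 1 TPM in 2 or more libraries were fitted as log2(TPM + 1) with limma 3.58.1 (R 4.3.3). The model had group as its term, with a variance prior following mean expression, and p-values were adjusted over all tested genes (Benjamini-Hochberg, 0.05). An exact permutation test of 2 against 2 libraries gives p = 0.333 at best and was not used.

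The members and gene lists were chosen with earlier results of these data known. Named were all members, DEK, every gene called in a list with 5 or fewer calls, otherwise up to 6 called genes with the smallest p and no overlap between groups, 4 genes of the list around MYB and MDM2 and of the further DHRS genes, and the 5 protein-coding genes most like DHRS2. Another gene of that MYB and MDM2 list is not reported here and not counted. Promoters are RefSeq's, on GRCh38.p14. Alternatives covered the pseudocount, the filter, scaling, the variance prior, a replicate block, subtraction of chromosome medians and leaving out each library.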

Additional observations from a re-analysis of the deposited data

How the results depend on the processing

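The DHRS2 log2 difference of 4.84 was 6.11 with a pseudocount of 0.1 and 5.40 with 0.5, which follows from its low control level, and stayed within 4.77 to 4.90 under the other 11 alternatives. Leaving out single libraries gave 4.77 to 4.90. The other tested members kept their sign under all 13 alternatives except DHRS4, at -0.05 without control 2. The number of genes changed was 26 with no filter on low values (7168 at an unadjusted p under 0.05) and 1437 without the trend in the variance prior. It lay between 0 and 5289 with single libraries left out, at 0 without either control (limma, 2821 and 3194 at an unadjusted p under 0.05) and 5289 without knockout 1. Of the 8 superfamily calls outside the members, 0 remained with no filter and 0 without the trend (13 and 14 at an unadjusted p under 0.05), 3 (HSD11B1, HSDL2 and MAT2B) with the replicate block, where CBR1, CBR3, KDSR, BLVRB and DECR1 had adjusted p-values of 0.051 to 0.083, and 0 to 15 genes were called with single libraries left out. Neighbour calls numbered 0 with no filter (18 at an unadjusted p under 0.05), 4 without the trend and 0 to 13 with single libraries left out, against 13. In the list around MYB and MDM2, 0 to 2 genes were called with single libraries left out, against 1, CDKN1A. DEK was at -1.89 both with no filter (adjusted p = 0.096) and without the trend (adjusted p = 0.056), and at -2.37 to -1.41 with single libraries left out, its adjusted p lying between 0.0047 and 0.22 over all alternatives. MDM2 ran from -0.53 without knockout 1 to 0.029 without knockout 2 and DHRS4-AS1 from -0.0064 without knockout 2 to 0.115 without knockout 1, so both changed sign without knockout 2, and neither was called in any setting. The causes were not tested. The replicate numbers name libraries only. Differences between replicates 1 and 2 correlated at 0.099 across genes between the groups, and with the replicate block 2971 genes were called in all, 2405 of them shared with the 2804. The filter of 5 TPM left out HSD11B1, SLC22A17 and DHRS4-AS1. Depth limits DHRS9, DHRS12, MYB and the control level of DHRS2, which rest on 7 to 51 reads per library.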
